A study of Mus musculus with 8 samples.

Results

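Dkk3 and Phc1 are 2 genes whose array signal took a high or a low level in muscle of Sod1 knockout and wild-type mice without fully following the genotype. Every probe of the deposited values that the platform annotation assigns to either symbol was taken: 1 probe for Dkk3 (Entrez gene 50781, chromosome 7) and 1 for Phc1 (Entrez gene 13619, chromosome 6), or 2 of the 7053 genes with a symbol of their own on these arrays. Illumina bead arrays measured RNA of the EDL, the extensor digitorum longus, a muscle of the shin built almost wholly of fast fibres, at 7 months of age. The knockout, labelled sod-/- and named in the design as a SOD1 knockout, lacks the copper-zinc superoxide dismutase of the cytosol, and the control is labelled wild-type. Each genotype had 4 arrays, called knockout 1 to 4 and wild-type 1 to 4 after the numbers in the labels. The sources used here give no strain, sex, slide or scan date, nor whether the 4 samples came from separate animals, so any spread is the spread between these samples. No check of the genotype labels was made on Sod1 itself, whose level was not analysed here. The 2 genes were chosen by their measured log2 intensities on these same 8 arrays.

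Dkk3 is a secreted glycoprotein of the Dickkopf family, whose founding members block Wnt signalling by binding the Lrp5 and Lrp6 co-receptors. Dkk3 is the most divergent member of that family, and work in mouse muscle has linked it to atrophy through beta-catenin and Foxo factors acting on the ubiquitin ligase genes Fbxo32 and Trim63. Phc1 is a vertebrate homologue of fly polyhomeotic and a subunit of the Polycomb repressive complex PRC1, which ubiquitinates histone H2A and compacts chromatin, and its SAM domain lets the complexes join into larger assemblies. The other Polycomb complex, PRC2, methylates histone H3.

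The stretch of 250 bases before the annotated start of Phc1 is shown because its signal moved together with that of Dkk3 over the arrays. It is the RefSeq sequence of build GRCm38.p6, chr6:122340228-122340477, on the minus strand, written 5′ to 3′ with the start site just past its last base. Capitals mark the 1 match among the motifs searched.
Phc1 promoter: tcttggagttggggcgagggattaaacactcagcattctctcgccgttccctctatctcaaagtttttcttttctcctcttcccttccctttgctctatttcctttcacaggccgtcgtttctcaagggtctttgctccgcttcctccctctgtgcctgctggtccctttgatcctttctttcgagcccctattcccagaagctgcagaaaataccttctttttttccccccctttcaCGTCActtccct
The capitals are the reverse complement of TGACG, the core of cAMP-responsive elements, and begin 12 bases before the start. TGACG or its complement is held by 17.8% of 32851 RefSeq promoter stretches of this length. The other 6 motifs searched on both strands had 0 matches in this window: TATAAA (held by 12.4% of promoters), CCAAT (33.8%), GGGCGG (32.7%), the circadian E-box CACGTG (6.02%), the muscle E-box CAGCTG (13%) and the antioxidant core TGACNNNGC (10.2%). The window was 49.6% G and C, against a mean of 53.2% over all promoters. A match is a string of letters and not evidence of binding.

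Before the values of the 2 genes, 1 fact about the arrays bears on all that follows. With the probes of Dkk3 and Phc1 left out, knockout 2 was more like wild-type 1 than like any knockout array (Pearson r across tested probes 0.970, against a mean of 0.925 with the other knockouts). Wild-type 2 was most like knockout 4, at r = 0.939, although its mean r was 0.922 with the other wild types and 0.907 with the knockouts. These correlations run across probes of pairs of arrays and carry no test. The 2 arrays are therefore kept under their labels, and the values of Dkk3 and Phc1 are also given without them.

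The Dkk3 probe had log2 intensities of 5.84, 11.07, 6.16 and 5.92 in knockout 1 to 4 and of 11.58, 5.96, 11.84 and 11.89 in wild-type 1 to 4. Knockout 2 and wild-type 1, 3 and 4 stood high, within 0.82 of each other, and knockout 1, 3 and 4 and wild-type 2 stood low, within 0.32. No array lay between 6.16 and 11.07, a gap of 4.91 on the log2 scale or 30.2-fold. That gap took up 81.3% of the whole range of 6.05. The genotypes overlapped because 1 array of each lay among those of the other. The low values are under the median of every array, 6.93, so Dkk3 exceeded the array median in 4 of 8 arrays, the least that the filter on low values asks for, and entered the tested probes only through its high side. In whole muscle, fewer cells that express a gene and less RNA per cell cannot be told apart.

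By genotype, Dkk3 averaged 7.25 ± 2.55 (SD, n = 4) on knockout arrays against 10.32 ± 2.91 on wild-type arrays, a difference of -3.07. The SDs reflect the parting within each genotype rather than a spread around one level. Without knockout 2 and wild-type 2 the means were 5.97 ± 0.16 (SD, n = 3) and 11.77 ± 0.17, a difference of -5.79 with no overlap. Those 2 arrays were left out because of the values described here, so the wider difference follows from the choice and is no independent support for an effect of genotype.

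The Phc1 probe had log2 intensities of 7.11, 8.79, 7.10 and 6.85 in knockout 1 to 4 and of 8.89, 7.53, 9.24 and 9.08 in wild-type 1 to 4. The arrays fell into the same 2 sets as for Dkk3, 4 on each side. The high side ran from 8.79 to 9.24 and the low side from 6.85 to 7.53, with a gap of 1.26 between them, 2.40-fold and 53.0% of the range of 2.38. Wild-type 2 was the highest array of the low side, whereas for Dkk3 it lay within the low side.

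Phc1 averaged 7.46 ± 0.89 (SD, n = 4) on knockout arrays against 8.68 ± 0.78 on wild-type arrays, a difference of -1.22. Without the arrays numbered 2 the means were 7.02 ± 0.15 (SD, n = 3) and 9.07 ± 0.17, a difference of -2.05, under the same reservation. Over the 8 arrays the 2 probes correlated at Pearson r = 0.98 and Spearman rho = 0.857. With values in 2 clusters, r mainly records the shared parting, and a correlation within each side of 4 arrays was not computed. The values of both probes led to their choice, so neither carries a test.

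**Figure D1:**
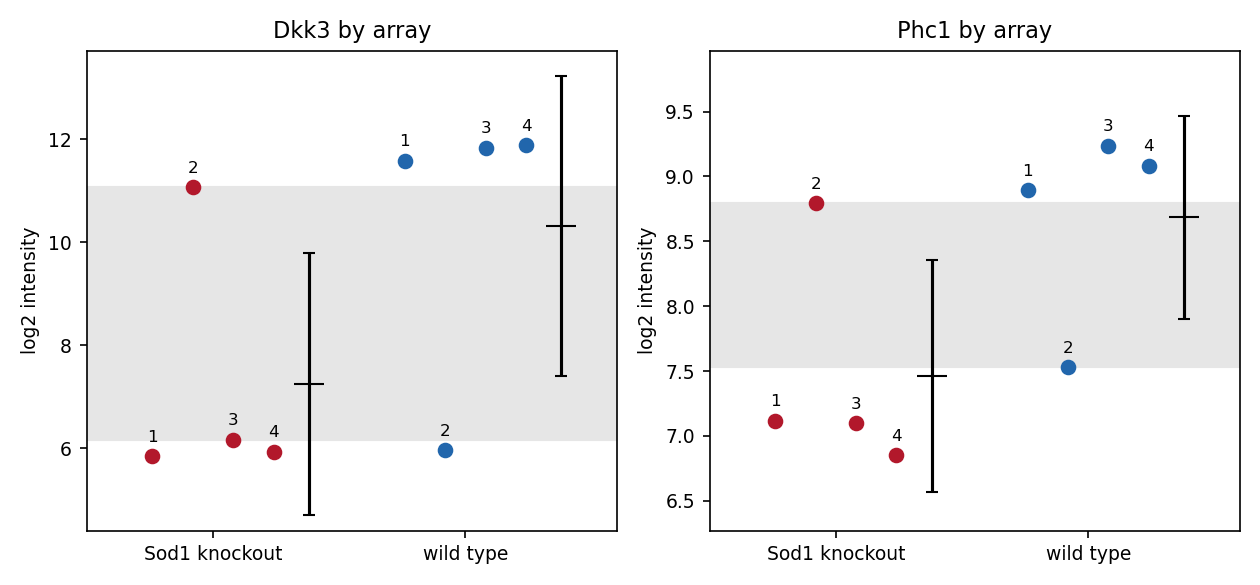
Log2 intensity of the Dkk3 probe (left) and the Phc1 probe (right) on each array, numbered as in the labels, with knockout arrays in red and wild-type arrays in blue; the bar beside each group is its mean with 1 SD (n = 4), and the grey band is the widest stretch without an array. Knockout 2 lies above the band and wild-type 2 below it in both panels, and the band is 4.91 high for Dkk3 and 1.26 for Phc1.

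To set these values against the rest of the array, the 8 values of each of the 9232 probes were sorted and the widest gap between neighbouring arrays was taken. The gap of Dkk3 was the widest of all probes, and that of Phc1 ranked 175. A probe was called two-state if its widest gap was at least 1 log2 unit and at least 50% of its range, with at least 2 arrays on each side. There were 34 such probes, or 0.368% of all, standing for 28 genes, with both Dkk3 and Phc1 among them. The gap of Phc1 lay just inside the second limit, and a stricter gap of 1.5 would leave it out.

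The 34 two-state probes parted the arrays in 13 ways. The commonest, with 12 probes, set knockout 1, 3 and 4 above all other arrays. Hpgd, which inactivates prostaglandins, had the widest gap of the two-state probes after Dkk3, at 3.49, with 9.07, 8.76 and 9.66 in those 3 arrays and 5.0 in knockout 2. The acetylcholine receptor subunit Chrna1, the embryonic myosin Myh3, the adhesion molecule Ncam1, the repressor Hes6, the activin antagonist Fst, and Igfn1 and Fggy parted the arrays in this way too. At these genes knockout 2 was on the side of most wild types, as at Dkk3 and Phc1, but so was wild-type 2, whose Hpgd value of 5.26 lay just above the other wild types at 4.66 to 5.14. The 2 partings therefore shared knockout 2 and differed at wild-type 2.

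Other two-state probes followed other lines. Both probes of Crebbp, a histone acetyltransferase, and the probe of R3hdm1 set the arrays numbered 1 and 2 of both genotypes above those numbered 3 and 4, and no label says what the numbers mark. Sesn1, a stress-induced inhibitor of growth signalling, was high in knockout 1 and 4 and wild-type 2 and 3. No two-state probe parted the arrays exactly by genotype, whereas 62 of all probes, or 0.672%, did so with gaps of any size. Besides Dkk3 and Phc1, 0 two-state probes parted the arrays in their way.

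**Figure D2:**
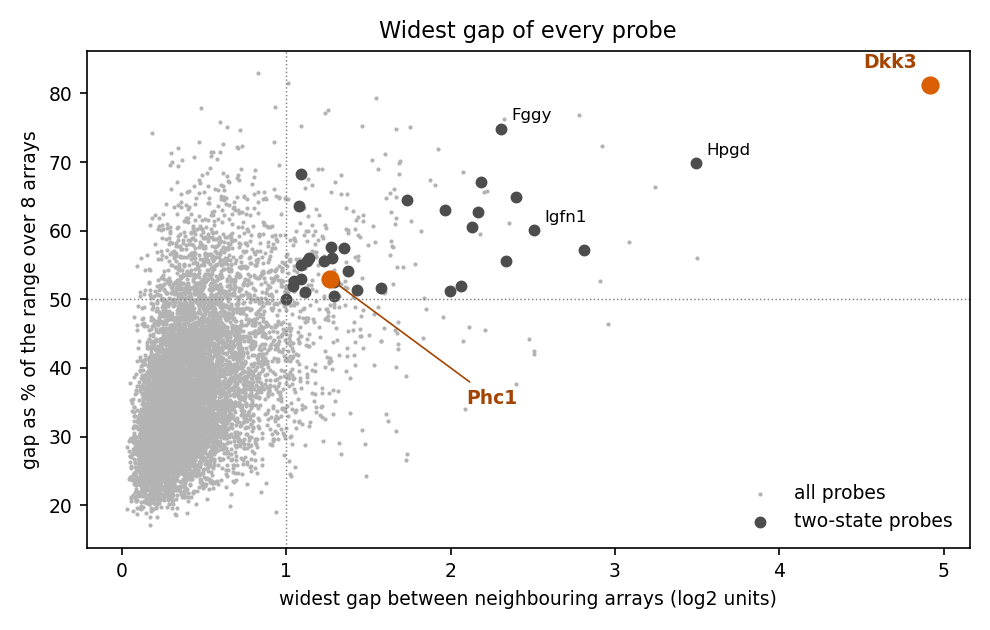
Widest gap between neighbouring arrays in log2 units (x axis) against the share of the probe's range over 8 arrays that it takes up in percent (y axis), 1 point per probe, with the 34 two-state probes in dark grey, Dkk3 and Phc1 in orange, and dotted lines at 1 log2 unit and 50%. Dkk3 lies alone at 4.91 and 81.3%, and Phc1 at 1.26 and 53.0% lies in the lower corner of the two-state probes.

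Counting gaps of any size, 94 of 9232 probes, or 1.02%, had their widest gap between the same 2 sets of arrays as Dkk3 and Phc1: 42 with the same arrays high and 52 with them low. Most of these gaps were small, 59 being under 0.5 log2 units, and the median was 0.41 against 0.37 for all probes. Gaps of at least 1 were found at 4 probes: Dkk3, Phc1, Hamp2 and Mss51, the last 2 chosen after their values were seen. Hamp2, a hepcidin-like peptide gene also on chromosome 7, ran the other way, at 10.17, 6.91 and 10.02 in knockout 1, 3 and 4 and 8.36 in wild-type 2, against 3.80 to 4.51 in the other arrays. Mss51, a muscle gene of mitochondrial function, ran with Dkk3, at 7.24 to 9.62 on the high side and 3.30 to 5.50 on the low side. Neither met the two-state limits, since the gap of Hamp2 was 37.7% and that of Mss51 27.5% of the range.

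Taking for each gene its probe of highest mean, 76 of 7050 genes placed in the annotation, or 1.08%, parted the arrays in this way. On the 2 genes' own chromosomes there were 8 of 585 on chromosome 7 and 5 of 365 on chromosome 6, or 1.37% on each, Dkk3 and Phc1 included. Chromosome 10 held the most, 10 of 353 or 2.83%. These shares are descriptive and were not tested.

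The next question was whether genes beside either locus took the same 2 levels. Among the 50 nearest measured genes of Dkk3, 25 on each side in annotated order, 0 parted the arrays as Dkk3 did. Among the 50 nearest of Phc1 it was also 0, beside 1.02% of all probes. At that share, counts of 0 among 50 genes say nothing particular about either locus. A looser reading asks only that the same 4 arrays be the highest or the lowest, which 604 probes, or 6.54%, met. It held for 2 of 50 neighbours of Dkk3 and for 4 of 50 neighbours of Phc1. The count for Phc1 moved with the setting: it was 3 of 20 with the 10 nearest on each side, 10 of 100 with the 50 nearest, 7 of 50 among probes that pass the filter on low values and 5 of 50 after cyclic loess. For Dkk3 these were 1 of 20, 4 of 100, 1 of 50 and 3 of 50. Whether the shares near Phc1 differ from that of all probes was not tested.

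Around Dkk3, the 5 nearest measured genes on one side were Swap70, Rnf141, Mrvi1, Ctr9 and Eif4g2, and on the other Parva, Arntl, Btbd10, Rras2 and Psma1. Eif4g2, a translation factor and the nearest on its side, had 6.78, 8.10, 7.54 and 7.50 in knockout 1 to 4 and 7.66, 5.86, 6.91 and 7.53 in wild-type 1 to 4. Wild-type 2 was its lowest array and knockout 2 its highest, but the other 6 arrays ran together, from 6.78 to 7.66. Parva, a focal adhesion protein and the nearest on the other side, spanned 6.18 to 6.80 with the genotypes interleaved.

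Arntl, the core clock factor also called Bmal1, was 8.49, 8.41, 6.34 and 7.27 in knockout 1 to 4 and 8.35, 8.30, 7.51 and 8.45 in wild-type 1 to 4, low in the 2 arrays numbered 3 and in knockout 4. Ctr9, of the Paf1 transcription complex, had the highest r with Dkk3 of the 10, at 0.74, over values of 4.29 to 5.34. Rras2, a Ras-family GTPase, had the widest gap of the 10, at 1.02, with knockout 2 alone above it at 9.49. The signals of the other nearest genes, Swap70, Rnf141, Mrvi1, Btbd10 and the proteasome subunit Psma1, correlated with Dkk3 at r from -0.35 to 0.50 (n = 8).

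Further out, Sox6, a repressor of slow-fibre genes, and Knop1, a nucleolar protein, were lowest in the 4 arrays where Dkk3 was high. Knop1 was 7.24, 7.32 and 7.40 in wild-type 1, 3 and 4 and 7.70 in knockout 2, against 7.89 in wild-type 2 and 8.02 to 8.17 in the other knockouts. Its widest gap, 0.30, lay below knockout 2 and so set all 4 knockouts and wild-type 2 above wild-type 1, 3 and 4. Over all 50 neighbours the median size of r with Dkk3 was 0.350, against 0.351 for all other probes, and r ran from -0.92 to 0.84.

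Around Phc1, the nearest measured genes were Bcl2l13, Bid, Mical3, Tuba8 and M6pr on one side and Mfap5, Slc2a3, Foxj2, Necap1 and Clec4a3 on the other. Of these 10, Mical3, Mfap5 and Slc2a3 had the same 4 arrays at one end. Slc2a3, the glucose transporter GLUT3, was 6.06, 6.99, 4.37 and 5.29 in knockout 1 to 4 and 7.17, 6.12, 7.54 and 7.07 in wild-type 1 to 4. It followed Phc1 closely in order, with rho = 0.952 and r = 0.89, but spread evenly, and its widest gap set knockout 3 apart from all other arrays.

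Mfap5, a protein of elastic microfibrils, was 5.95 to 6.40 in knockout 2 and wild-type 3 and 4. In wild-type 1 it was only 4.96, beside 4.94 in knockout 4. Mical3, which oxidises actin, ran the other way, at 7.45, 6.82 and 6.86 in knockout 1, 3 and 4 and 6.80 in wild-type 2. It was 6.72 in knockout 2 and 5.81 to 6.0 in the other wild types. M6pr, a receptor that sorts lysosomal enzymes and the nearest on its side, was highest in wild-type 2, at 9.51, and correlated with Phc1 at 0.35. The remaining nearest genes, Bcl2l13, Bid, Tuba8, Foxj2, Necap1 and Clec4a3, had gaps under 1 log2 unit and r from -0.67 to 0.72.

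At a greater distance Mkrn2, a ubiquitin ligase, had r = 0.93 with Phc1 over a narrow range of 10.16 to 10.56. The widest gap of any neighbour of Phc1 belonged to Depp1, a Foxo target chosen after its values were seen, at 2.09. Depp1 was high in knockout 1 and 4 and wild-type 2 and 3, the parting of Sesn1 and not that of Phc1. The median size of r over the 50 neighbours was 0.436, against 0.350 for all other probes, and r ran from -0.84 to 0.93. Whether these medians differ was not tested.

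**Figure D3:**
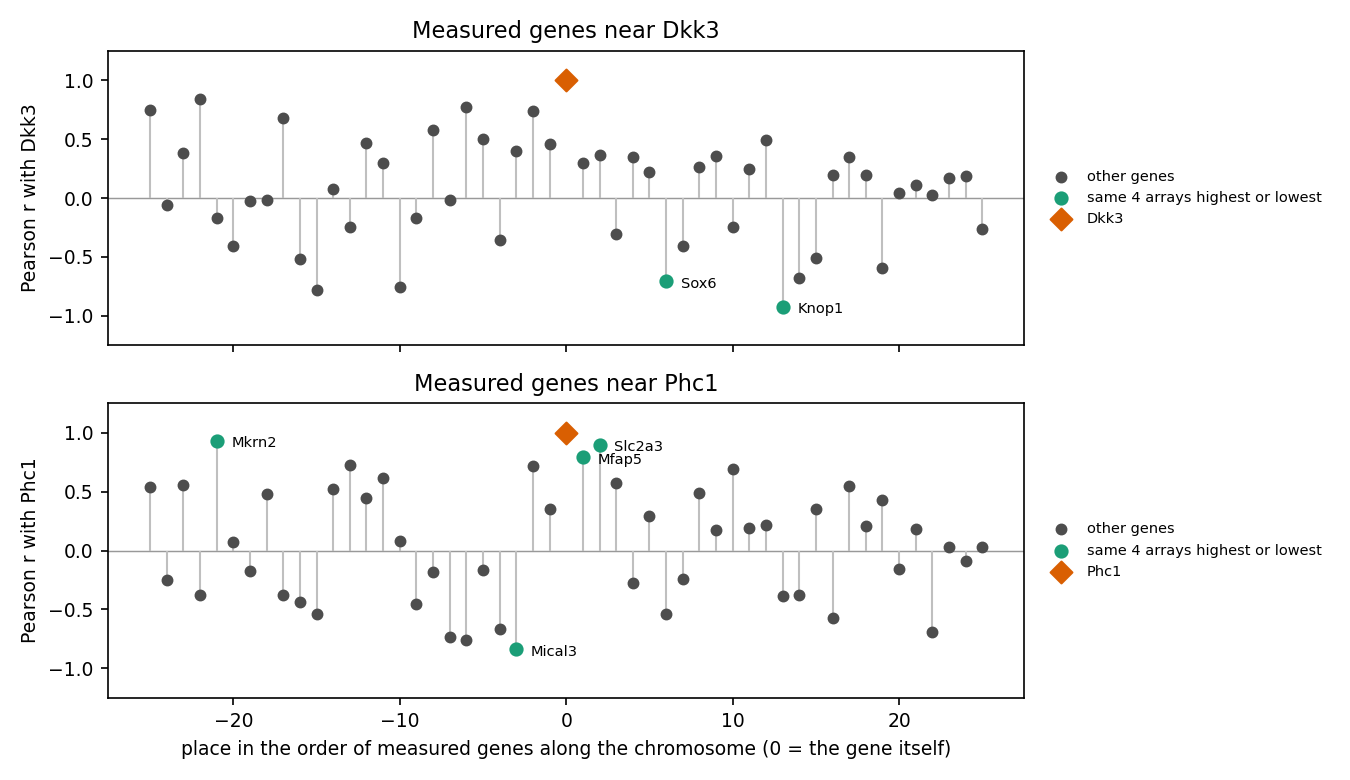
Pearson r over the 8 arrays with Dkk3 (top) and Phc1 (bottom) for the 25 nearest measured genes on each side, placed by their order along the chromosome, with the gene itself as a diamond at r = 1. Green marks the genes with the same 4 arrays highest or lowest, 2 near Dkk3 and 4 near Phc1, and r is above 0 for 5 genes in a row around each diamond, from Mrvi1 to Arntl near Dkk3 (0.30 to 0.74) and from Tuba8 to Foxj2 near Phc1 (0.35 to 0.89). These runs were picked after r was seen and were not tested. They end at Rnf141 (-0.35) and Btbd10 (-0.30) near Dkk3 and at Mical3 (-0.84) and Necap1 (-0.27) near Phc1.

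Genotype was tested at the neighbours that passed the filter on low values, 22 of the 50 near Dkk3 and 28 of the 50 near Phc1. Over all 4698 tested probes limma called 0, or 0%, at a Benjamini-Hochberg adjusted p under 0.05, and 439, or 9.34%, had an unadjusted p under 0.05. Unadjusted, 2 of 22 and 4 of 28 neighbours had such a p. Near Dkk3 these were Gprc5b, a membrane receptor, at 1.34 (adjusted p 0.423) and Knop1 at 0.55 (adjusted p 0.465). Gprc5b was 8.35, 9.18 and 9.09 in knockout 1, 3 and 4, 7.52 in knockout 2 and 6.75 to 7.52 in the wild type. Without knockout 2 its difference was 1.67 and passed, with an adjusted p of 0.0349 in limma. Without both arrays numbered 2 it also passed (1.67, adjusted p 0.0386 in limma). Those runs called 36 and 59 of 4698 probes, and with any other single array left out Gprc5b did not pass. Knockout 2 was its lowest knockout array, so the wider difference follows from leaving it out and is no independent support.

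Near Phc1 the 4 were Slc2a3 at -1.30 (adjusted p 0.510), M6pr at -0.41 (0.518), Cops7a, a subunit of the COP9 signalosome, at 0.49 (0.526) and Wnk1, a kinase of ion transport, at 0.62 (0.465). None of these passed in limma. The counts of 2 of 22 and 4 of 28 lie near the 9.34% of all tested probes.

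The likeness of single genes to Dkk3 and Phc1 was measured by Pearson r over the 8 arrays among probes that passed the filter. The 8 highest and 4 lowest for each gene are 21 genes in all with Dkk3 and Phc1 themselves, and each of them had its widest gap between the same 2 sets of arrays. Phc1 was second for Dkk3, at 0.98, and Dkk3 second for Phc1. First for both was Gpr146, an orphan receptor on chromosome 5, at 0.98 with Dkk3 and 0.99 with Phc1. Gpr146 was 7.90, 8.05, 7.88 and 8.06 in the low arrays and 8.54, 8.69, 8.85 and 8.81 in the high arrays. Its gap was 0.48.

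After these, Dkk3 was followed by Car11, a carbonic anhydrase-related protein on chromosome 7, at 0.98, by Bsg, the chaperone of lactate transporters, at 0.96, and by Mapkapk3, a kinase below p38, at 0.96. Fbp2, the muscle fructose bisphosphatase, stood at 0.95 with Dkk3 and 0.96 with Phc1. Fbp2 was 10.22, 10.38, 10.42 and 10.86 in the low arrays and 11.66, 11.64, 11.52 and 11.87 in the high ones, with wild-type 2 the highest of the low side as for Phc1. Gnptg, which helps to tag lysosomal enzymes, and Ptpn21, a tyrosine phosphatase, completed the list for Dkk3 at 0.95 each.

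For Phc1 the list went on with Pmp22, a myelin protein also made outside nerve, at 0.97, the ubiquitin ligase Kcmf1 on chromosome 6 at 0.96, the translation initiation subunit Eif2s2 at 0.95, the tetraspanin Tspan8 at 0.95 and the lysosomal peptidase Dpp7 at 0.94. Kcmf1 and Car11 are on the chromosomes of Phc1 and Dkk3 but outside the 50 nearest genes of each.

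Genes that ran the other way were Riok3, a RIO-family kinase, at -0.95 with Dkk3 and -0.99 with Phc1, and, for Dkk3, 3110040N11Rik at -0.98, Bhlhb9 at -0.97 and Sel1l, of endoplasmic reticulum degradation, at -0.95. For Phc1 they were Igf2, the growth factor of developing muscle, at -0.97, the mitochondrial dehydrogenase Aldh5a1 at -0.97 and Tspo, of the outer mitochondrial membrane, at -0.96. Igf2, on chromosome 7, was 10.12, 10.37 and 10.32 in knockout 1, 3 and 4 and 9.63 in wild-type 2, against 8.63 to 8.86 in the high arrays of Dkk3. All these r come from 8 arrays in 2 clusters and were picked as the extremes of 4698 probes. The gaps of the listed genes other than Dkk3 and Phc1 ran from 0.34 to 0.84, well under the 4.91 of Dkk3.

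**Figure D4:**
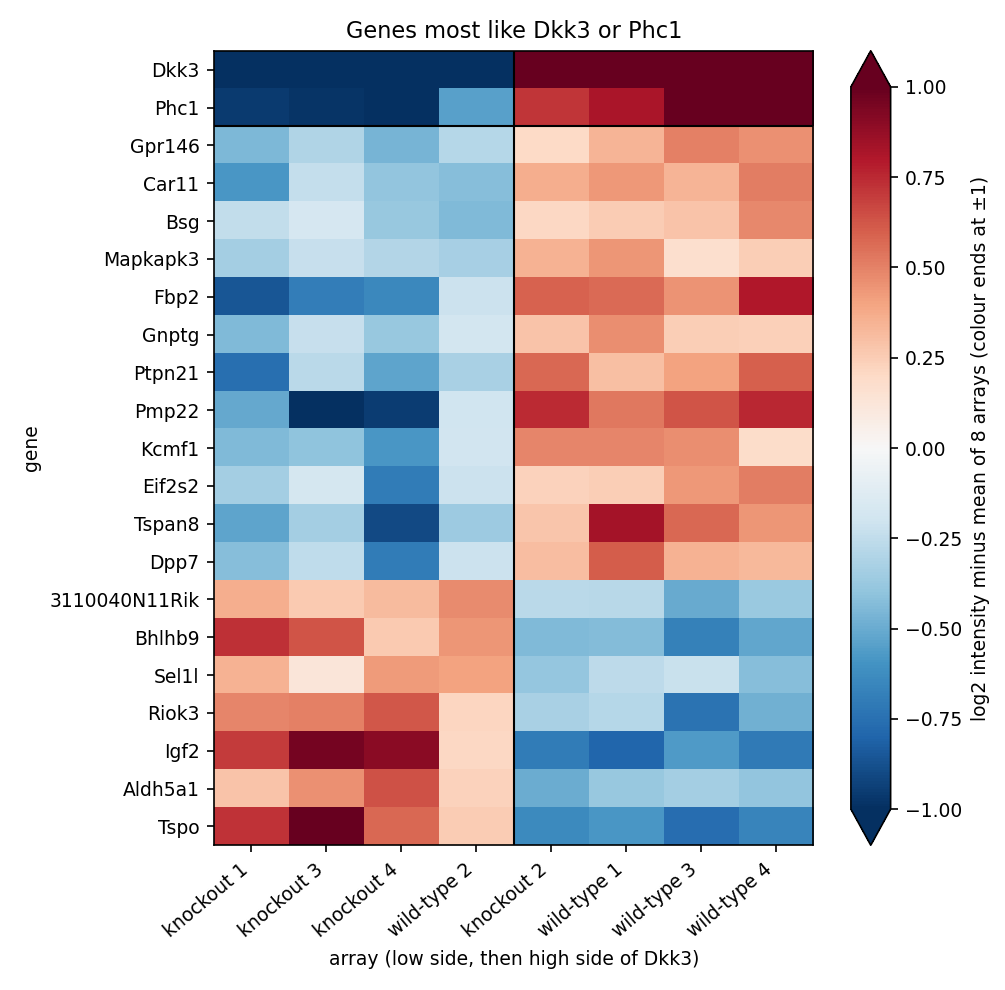
Log2 intensity minus the gene's mean over 8 arrays (colour, ending at 1 on either side) for the 21 genes drawn, with the 4 low arrays of Dkk3 to the left of the line and the 4 high arrays to its right. Every gene changes sign at the line, and wild-type 2, just left of the line, is paler than knockout 1, 3 and 4 in Phc1, Fbp2, Pmp22, Igf2 and Tspo.

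The partners of each gene were then examined through lists of their pathways. Of 72 listed genes of Dickkopf and Wnt signalling other than Dkk3, 21 were measured and 7 tested, and 0 passed in limma after adjustment. The tested genes had a median difference of -0.34, with 1 higher and 6 lower in the knockout, beside a median of -0.03 and 45.9% higher over all tested probes. Unadjusted, 2 of 7 had a p under 0.05 in limma, beside 9.34% of all tested probes. Whether the 7 genes differ from that share was not tested. The 2 were Tle1, a Groucho co-repressor, at -0.60 (adjusted p 0.465) and Gsk3b, the kinase that marks beta-catenin for decay, at -0.50 (adjusted p 0.518). Ctnnb1, beta-catenin itself, was 9.0 against 9.06, and Pygo2, its nuclear co-activator, 8.86 against 9.20.

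Wnt4, a ligand, was the 1 measured list member that parted the arrays as Dkk3 did. Its values were 6.47, 6.32, 6.26 and 5.94 in the low arrays and 6.85 to 7.20 in the high ones, and it did not pass the filter on low values. Ctnnb1 and Pygo2 had the same 4 arrays highest, so 3 of 21 met the looser reading beside 6.54% of all probes. The co-receptors Lrp5 and Lrp6 and the Dickkopf receptor Kremen1 were measured but not tested, and Kremen1 was 5.28 in the knockout against 4.44.

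Of 7 listed genes that work in mice has linked to Dkk3 in atrophy, 4 were measured, 3 tested and 0 passed. None of the 4 parted the arrays as Dkk3 did, which at 1.02% of all probes says nothing about the list. Fbxo32, also called atrogin-1, was 11.91, 10.65, 9.96 and 11.89 in knockout 1 to 4 and 11.86, 12.21, 12.50 and 11.03 in wild-type 1 to 4. Its r with Dkk3 was 0.02. Trim63, also called MuRF1, was lowest in knockout 2 and 3, at 8.52 and 8.60, and reached 11.65 in knockout 1 (r with Dkk3 -0.31). Wild-type 1 and 4 were at 9.42 and 9.85. The widest gap of Trim63 set knockout 1 and 4 and wild-type 2 and 3 above the rest, the parting of Sesn1. Foxo1, a transcription factor that activates both ligase genes, ran from 5.27 in knockout 2 to 8.74 in knockout 1. Its widest gap set those arrays and wild-type 4 above the rest, where those arrays are knockout 1 and 4 and wild-type 2 and 3.

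Of 25 listed PRC1 genes other than Phc1, 12 were measured and 6 tested, with 2 higher, 4 lower and 0 passing, at a median of -0.11. Phc2, the paralog of Phc1, averaged 8.29 ± 0.29 (SD, n = 4) on knockout and 8.23 ± 0.29 on wild-type arrays, with r = -0.23 to Phc1. Cbx7, a chromodomain subunit that reads the PRC2 mark, had the smallest p of the list, at -0.57 (adjusted p 0.485), and Bmi1, a RING-finger partner, stood at 7.96 against 8.08. Of the 12, 0 parted the arrays as Phc1 did and 0 had the same 4 arrays at one end, beside 1.02% and 6.54% of all probes, so these counts say nothing particular about PRC1.

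Of 12 PRC2 genes, 7 were measured and 3 tested, each by its probe of highest mean, all 3 lower and 0 passing, at a median of -0.09. For Rbbp7 the probe counted was at -0.09, but a second tested probe went the other way. That second probe was at 1.13, with an unadjusted p of 0.00743 and an adjusted p of 0.457 in limma. Eed, which binds the methylated histone, was 8.17 to 8.51 on knockout arrays and 8.83 to 9.13 on wild-type arrays, a difference of -0.63 with an unadjusted p of 0.00158 and an adjusted p of 0.379 in limma. Its groups did not overlap, and its widest gap parted the arrays exactly by genotype, as did that of 0.672% of all probes. Knockout 2, at 8.51, was the knockout nearest the wild types, with the other knockouts at 8.17 to 8.24, but neither it nor wild-type 2 crossed over. Aebp2, a PRC2 cofactor that did not pass the filter, parted the arrays against Phc1. It was 5.98 to 6.54 in the low arrays of Phc1 and 5.44 to 5.64 in the high ones.

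Markers of cell types were read for any that moved with the 2 genes. Of 11 fast muscle markers 9 were measured, and all 9 lay between 13.02 and 14.06 in every array, where the array median was 6.93. Myh4, the fast myosin, was 13.02 to 13.36. The list's mean relative to each gene's mean over arrays stayed between -0.07 and 0.09, a measure of likeness between arrays only. Fibroblast (2 of 7 measured), endothelial (5 of 6), macrophage (3 of 8), satellite cell (1 of 4), smooth muscle (2 of 4) and adipocyte (1 of 5) markers had 0 genes parting the arrays as Dkk3 did. With 1.02% of all probes parting them so, these counts of 0 say nothing particular about those cell types. Dcn, made by fibroblasts, was 12.05 to 12.64 throughout.

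Among Schwann cell markers, 2 of 5 were measured: Pmp22 parted the arrays as Dkk3 did and Mbp, a myelin protein, did not (r with Dkk3 0.10). The mean of those 2 ran from -1.24 to 0.62 in the knockout, highest in knockout 2, and from 0.05 to 0.43 in the wild type. Of 6 slow muscle markers, all measured, Myl2 had the same 4 arrays highest and Tnnt1 had them lowest, beside 6.54% of all probes at either end. Myl2 was 10.28 in knockout 2, 9.14, 8.99 and 10.03 in wild-type 1, 3 and 4 and 7.64 to 8.54 in the rest. Myl3 was 9.11 in knockout 2, 5.46 to 6.30 in the other knockouts and 7.50 to 8.24 in the wild type. With Dkk3, r was 0.83 for Myl2 and 0.74 for Myl3. It was -0.81 for Tnnt1, -0.74 for Tnni1, -0.63 for Tnnc1 and -0.48 for Myh7. The slow list's mean was 0.47 in knockout 2 and -0.10 in wild-type 2, within a range of -0.11 to 0.47 in the knockout and -0.22 to 0.23 in the wild type. Red blood cell markers (2 of 3 measured) included Hba-a1, also highest in the same 4 arrays, beside the same 6.54%. Their list means were -0.46 to 0.10 in the knockout and -0.11 to 0.65 in the wild type. The part of nerve, fibre type or blood in the levels of Dkk3 and Phc1 was not tested. Of 7 listed sex-linked genes 2 were measured, both Y-linked. Eif2s3y was 8.63 to 9.05 in all 8 arrays, and so did not part them. Kdm5d, which did not pass the filter on low values, ran from 4.24 in knockout 4 to 6.43 in wild-type 1. Its widest gap set knockout 2 and wild-type 1 and 2 above the rest, which is not the parting of Dkk3.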

How the data were processed

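EDL total RNA was isolated with a fibrous-tissue kit and converted to biotinylated cRNA for Illumina bead arrays, per the labels' protocols. The values used are log2 intensities as deposited by the authors for 8 arrays. All columns hold the same sorted values, from 3.21 to 14.19, so they were quantile normalized before deposit; base 2 of the logarithm is inferred from that range. How the background was corrected, and whether probes were filtered, is not given in the sources used here. Depth has no counterpart on arrays, and the number of arrays limits the precision. A table of values without a common distribution was not used, since its 8 column names match no sample's labels.

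Of 9232 probes, 8403 had 1 platform symbol, 3 had several and 826 none; 8399 matched the GRCm38.p6 gene table by Entrez number, which gave chromosome and gene order. Tests used limma 3.58.1 in R 4.3.3 (lmFit on genotype, eBayes without trend, two-sided) over the 4698 probes above the array median in at least 4 of 8 arrays, with Benjamini-Hochberg adjustment over all of them. Widest gaps, counts and correlations were computed in Python 3.11.15 with pandas 2.3.3, and both procedures were tested on simulated data. The probe of highest mean stood for a gene among neighbours and in the list counts.

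The members and all lists were chosen with earlier results of these data known. The text names Dkk3 and Phc1, the 5 nearest measured genes on each side, the 8 highest and 4 lowest by r, the 12 two-state genes of widest gap and up to 6 members of each list by p; any others were picked after seeing their values, as the text says, or are the neighbours and list members that a small count refers to. Same-numbered arrays of the 2 genotypes deviated from their group means with correlations of -0.28, -0.15, 0.24 and -0.34, so the numbers were not treated as pairs. Alternatives covered the filter, moderation, array weights, a replicate block, cyclic loess, the window of neighbours, the two-state limits and each array left out in turn.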

Additional observations from a re-analysis of the deposited data

Results flagged for a closer look

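In 60 genes named in the text, each genotype's 4 arrays were searched for 1 array far from the other 3, by the ratio of its distance from the nearest to the whole range of the group (Dixon's ratio, critical value 0.829). The ratio was above that value in 16 of 120 groups: 12 had knockout 2 apart, 3 wild-type 2 and 1 another array. In genes not chosen by their values chance gives about 1 in 20, a rate that cannot be set against this count. Dkk3 and Phc1, the genes most like them and the two-state genes were all chosen by their values on these arrays, so the ratios are descriptions and not tests.

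For Dkk3 the ratio was 0.939 for knockout 2, high at 11.07, and 0.948 for wild-type 2, low at 5.96. For Phc1 it was 0.864 for knockout 2, high at 8.79, and in the wild type it did not pass. Among genes most like them, knockout 2 stood high in Mapkapk3 (ratio 0.837), Fbp2 (0.856) and Kcmf1 (0.833), and low in 3110040N11Rik (0.85), Riok3 (0.857) and Igf2 (0.848). Wild-type 2 stood high in Aldh5a1 (0.916).

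Near Dkk3, knockout 2 stood high in Mrvi1, a substrate of the cGMP kinase, at 6.07 (ratio 0.858) and in Rras2 at 9.49 (0.832). Wild-type 3 stood low in Arntl at 7.51 (0.84). Of the two-state genes, knockout 2 stood low in Fggy, a carbohydrate kinase, at 6.93 (0.864) and in Hes6 at 7.40 (0.921). Wild-type 2 was the highest of the wild types in Eed, at 9.13 (0.914).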

How the results depend on the processing

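Dkk3 and Phc1 kept the sign of their difference in every alternative run. Leaving out 1 array at a time gave -4.52 to -2.54 for Dkk3, against -3.07 with all arrays, and -1.66 to -1.02 for Phc1, against -1.22; array weights gave -4.57 and -1.70, and cyclic loess -3.05 and -1.20. Their widest gaps were 4.91 to 5.42 and 1.26 to 1.68. Of the likeness values recomputed, 216 of 216 moved by under 0.1. Those pairs were picked as the extremes of r on these same arrays, so small moves follow largely from the choice and are no independent support.

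The count of probes called between genotypes was 0 with all arrays, 4 with array weights, 36 without knockout replicate 2 (0 to 36 over the arrays left out) and 59 without both replicates numbered 2, an alternative added after the data were seen. With the replicate number as a block (replicate block, numbers not paired) it was 0, with 422 probes at an unadjusted p under 0.05, and the differences of Dkk3 and Phc1 were the same -3.07 and -1.22. The count of neighbours parting the arrays alike was 0 in every window, filter and scaling tried. With 1.02% of all probes parting them so, such counts of 0 say nothing particular about either locus. By the looser reading of the same 4 arrays, also added later, the count was 2 near Dkk3 and 4 near Phc1, beside 6.54% of all probes. Over the other windows, filter and scaling it was 1 to 4 and 3 to 10, with 7 of 50 near Phc1 under the filter. Two-state probes numbered 15 with a gap of at least 1.5 and 150 with 0.5, against 34. Of the recomputed values of single genes, 361 were counted as unchanged. These include the 216 likeness values, and the rest are limma differences that kept their direction and side of the threshold. The other 2, both of Gprc5b, passed without knockout 2.

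The 8 arrays and 1 probe per gene limit these statements, and no detection values were used: whether the low level of Dkk3 was above background was not analysed here.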
